A study of Mus musculus with 2 samples.

Results

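The microglia identity genes examined here are Cx3cr1, Csf1r, P2ry12, Tmem119, C1qa, Aif1, Spi1, Irf8 and Sall1, 9 of the 21938 protein-coding genes annotated in GENCODE M21. They were listed by name, and every DNase-seq peak and footprint overlapping a gene body or the 10 kb to each side was taken as lying in that gene's window. The samples were frontal cortex of female B6CASTF1/J mice, an F1 hybrid of the B6 and CAST strains, aged 36 days and without a recorded treatment or other genotype. The labels give 1 group of 2 biological replicates with separate tissue records under 1 donor label, and the sources used here do not say whether these were separate animals.

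Microglia are the resident macrophages of the brain and a minority of the cells of the cortex. They depend on signalling through the CSF1 receptor for survival, sense neurons through receptors such as CX3CR1 and P2RY12, and hold their identity through a transcription programme built on PU.1 (the product of Spi1), IRF8 and SALL1. Whole frontal cortex contains neurons, astrocytes, oligodendrocytes and vascular cells as well, so these libraries average over all of them. In such bulk tissue fewer cells of a type and less accessibility per cell cannot be told apart.

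DNase I cuts DNA that nucleosomes leave exposed, and stretches with many cuts are called as peaks. A footprint is a short stretch inside accessible DNA that is cut less than its surroundings, as by a bound protein. The authors deposited a shorter peak list (29700 peaks in replicate 1 and 66512 in replicate 2) and a longer one (56015 and 117579) per library, with 112826 and 250543 footprints of median width 9 bp. The shorter list is used unless the longer is named. Peak signal is the authors' density normalized for read depth. It moved in steps of 0.0118 and 0.00971, which corresponds to 84.9 M and 103 M tags if 1 step is 1 tag per M. No p-value is given, because 1 group of 2 replicates holds no comparison between conditions.

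Of the stretches near these genes that were accessible in both replicates, 6 are printed here because the results turn on them. A further 1 (Aif1) was called in replicate 2 only. The letters are the plus strand of the reference genome (GRCm38, the build mm10 of the files), so letters particular to the CAST allele are not shown. Capitals mark bases inside footprints of both replicates, or of replicate 2 for Aif1. The Irf8 stretch stops at the base before the annotated start of transcription.
Irf8 promoter, chr8:120736141-120736357: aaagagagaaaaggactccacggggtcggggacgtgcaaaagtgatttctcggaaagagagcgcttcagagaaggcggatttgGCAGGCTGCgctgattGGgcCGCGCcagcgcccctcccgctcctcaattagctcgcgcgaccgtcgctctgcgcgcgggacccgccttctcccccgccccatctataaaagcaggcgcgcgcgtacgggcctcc
Spi1 intron, chr2:91101501-91101680: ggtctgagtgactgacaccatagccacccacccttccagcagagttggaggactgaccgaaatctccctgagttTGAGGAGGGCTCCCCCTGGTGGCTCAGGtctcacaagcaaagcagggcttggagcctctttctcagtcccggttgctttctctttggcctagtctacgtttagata
Spi1 last coding exon, chr2:91115141-91115360: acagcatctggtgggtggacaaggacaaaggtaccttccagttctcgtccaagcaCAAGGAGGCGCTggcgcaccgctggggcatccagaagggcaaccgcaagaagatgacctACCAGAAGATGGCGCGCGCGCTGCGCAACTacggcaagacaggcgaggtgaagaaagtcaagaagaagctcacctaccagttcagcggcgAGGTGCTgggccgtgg
P2ry12 intron, chr3:59243501-59243680: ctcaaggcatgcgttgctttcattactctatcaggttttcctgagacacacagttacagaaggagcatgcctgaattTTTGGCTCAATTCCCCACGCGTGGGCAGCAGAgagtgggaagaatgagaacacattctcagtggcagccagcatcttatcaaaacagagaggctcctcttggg
Cx3cr1 upstream, chr9:120073241-120073440: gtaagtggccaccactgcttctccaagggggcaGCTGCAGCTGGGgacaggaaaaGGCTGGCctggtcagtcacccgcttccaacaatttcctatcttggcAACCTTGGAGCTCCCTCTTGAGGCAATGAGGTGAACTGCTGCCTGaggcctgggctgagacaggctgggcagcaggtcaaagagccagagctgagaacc
Cx3cr1 distant intron, chr9:120020381-120020540: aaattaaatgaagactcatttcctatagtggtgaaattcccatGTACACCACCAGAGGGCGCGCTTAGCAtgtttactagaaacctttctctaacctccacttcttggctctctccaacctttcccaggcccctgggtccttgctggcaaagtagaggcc
Aif1 upstream, chr17:35178675-35178752: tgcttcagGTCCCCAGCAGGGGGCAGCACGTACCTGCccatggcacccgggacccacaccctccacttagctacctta

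The Irf8 stretch held 26 CpG dinucleotides in 217 bp, the Spi1 exon 15 in 220 bp, and each of the others at most 3. Long unbroken capitals stand out in 5 of the 6 stretches called in both replicates, whereas those at Irf8 are short and came from footprints that overlapped only in part.

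Few of these genes had a promoter peak. A peak within 500 bp of one of a gene's own transcription start sites (TSSs) was called in both replicates for 1 of the 9, Irf8, against 50.8% of all protein-coding genes. Replicate 1 had 1 of 9 (51.0% of all genes) and replicate 2 had 3 of 9 (60.0%), the added genes being Sall1 and Aif1. In the longer lists 2 of 9 had one in both replicates (57.9% of all genes), Irf8 and Aif1, and 3 of 9 in replicate 2 (64.4%). Cx3cr1, Csf1r, P2ry12, Tmem119, Spi1 and C1qa had none in any list of either replicate.

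The authors' table of cut rates, which covers positions outside the peaks too, named the same genes. It comes from the same libraries as the peak lists, so it is not a second line of evidence. Positions with an FDR of 0.05 or less lay within 500 bp of a TSS for 2 of 9 members in replicate 1 (59.4% of all genes) and for 3 of 9 in replicate 2 (65.3%). The lowest FDR at Irf8 was 3.14e-10 in replicate 1 and 8.71e-17 in replicate 2. At Aif1 it was 0.0091 and 5.26e-06. Sall1 had no such position in replicate 1 and reached 7.25e-05 in replicate 2. The other 6 members had no position that low at any of their TSSs in either replicate.

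The promoters of the members differ in sequence composition. The ratio of observed to expected CpG, in the 300 bp from 250 before to 50 after the start, had a median of 0.312 over the 9 members, 0.780 over genes whose promoter was called in both replicates and 0.196 over those called in neither. Irf8 had the highest ratio of the 9, at 1.03, followed by Spi1 at 0.771 and Sall1 at 0.731. Spi1 thus had a CpG ratio near the median of open promoters and no promoter peak. Csf1r had no CpG in this stretch, and Aif1 had a ratio of 0.122. The part of CpG content in the promoter counts was not tested.

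**Figure D1:**
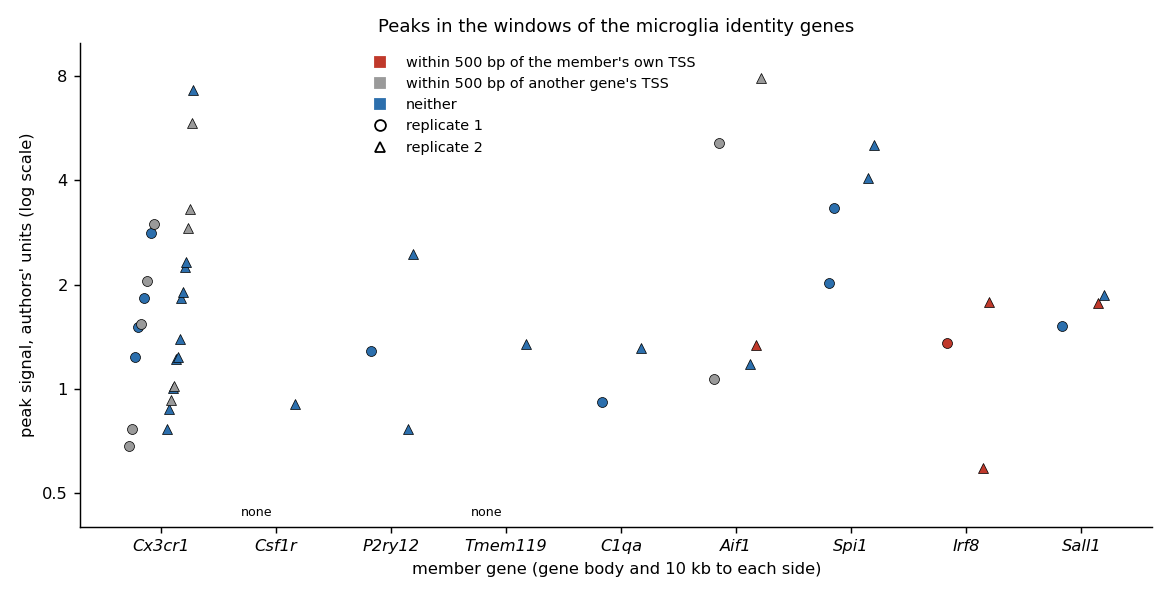
Signal of every peak in the windows of the 9 genes (log scale), as circles for replicate 1 and triangles for replicate 2, coloured by whether the peak lies within 500 bp of the gene's own TSS, of another gene's TSS, or of neither. Own-promoter peaks appear at Irf8 in both replicates and at Aif1 and Sall1 in replicate 2 only, and the highest signals at Aif1, 5.15 and 7.91, belong to another gene.

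Counting whole windows, replicate 1 had 17 peaks and replicate 2 had 30, and 15 of the 17 overlapped a replicate 2 peak. Of all 29700 replicate 1 peaks, 27469 did. Of the 17, 1 was an own promoter, 7 lay at the TSS of another gene and 9 at neither. Of the 30, the numbers were 4, 6 and 20. A shared peak lay in the window of 7 of 9 members, against 67.2% of all protein-coding genes, and in 6 of 9 it was not at the promoter of another gene. The median number of shared peaks per window was 1 for the members and 1 for all genes. Tmem119 and Csf1r had no shared peak.

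Cx3cr1, the receptor for the neuronal chemokine fractalkine, held 9 of the 17 and 16 of the 30 peaks. Its annotation on the minus strand runs over 168 kb (chr9:119901616-120069879), because 1 of its 3 transcripts ends in a distant exon, while the shortest of its principal transcripts spans 19.6 kb. That long body crosses several unrelated genes. In replicate 1, 5 of the 9 peaks lay at TSSs of Wdr48 and Gm2449, of Gorasp1 and Ttc21a, or of Csrnp1 and 1700019L13Rik. In replicate 2, 5 of the 16 did.

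The highest Cx3cr1 window peak away from such promoters, at chr9:120011101-120011360, reached signals of 2.83 (replicate 1) and 7.31 (replicate 2). It overlaps an exon of the lincRNA Gm49427 and lies 58.6 kb from the Cx3cr1 start. A second, printed as the distant intron stretch, overlaps Xirp1, a gene known for its actin-binding product in muscle, and had signals of 1.51 and 2.33. The 1 shared peak beside the compact Cx3cr1 gene itself lies upstream, 3.45 kb before its first TSS. Its signal was 1.83 in replicate 1 and 2.25 in replicate 2, above 82.9% and 89.0% of peaks farther than 1000 bp from any TSS. The stretch printed for it carries the longest footprint of all members, 48 bp in replicate 1 and 45 bp in replicate 2. No peak lay inside that shorter transcript in either replicate.

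**Figure D2:**
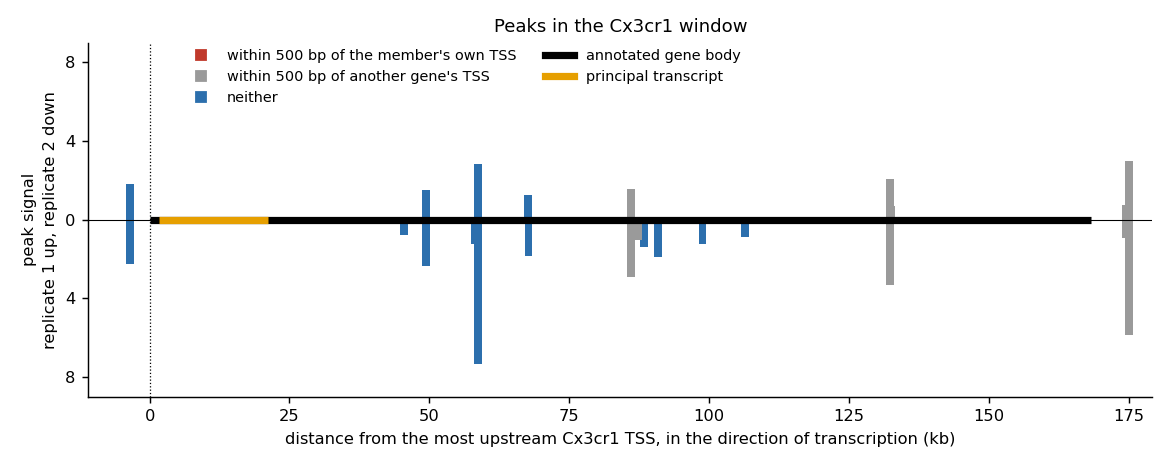
Peak signal in the Cx3cr1 window by distance from its most upstream TSS in the direction of transcription (kb), replicate 1 upward and replicate 2 downward, with the annotated body in black and the shortest principal transcript in orange. The peak 3.45 kb upstream is the one beside the compact gene, and the highest bars lie 58.6 kb or farther past that TSS. Those at Wdr48 and Gm2449 lie beyond the end of the annotated body.

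Csf1r encodes the receptor for CSF1 and IL-34. It had no peak in the shorter list of replicate 1 and 1 in replicate 2, an intronic peak of signal 0.903 that lies 3.12 kb after its reference TSS. The longer list of replicate 1 held a peak over the same place with a signal of 0.683. A footprint of 7 bp in replicate 1 lay within 1 of 11 bp in replicate 2 there. The Fms intronic regulatory element, a known macrophage enhancer, lies in an intron of Csf1r, and whether this peak covers it was not tested.

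P2ry12, the ADP receptor that guides microglial processes to injury, had 1 shared peak, in an intron 19.3 kb after its reference TSS. Its signal was 1.28 in replicate 1 and 2.45 in replicate 2, above 60.4% and 91.2% of peaks away from TSSs. The gene Med12l runs over the same stretch on the opposite strand, so the peak lies inside both genes. The shortest principal transcript of P2ry12 spans 3.9 kb, and the peak lies outside it and outside 10 kb to each side of it. A footprint of 32 bp in replicate 1 and 36 bp in replicate 2 makes the run of capitals in the printed stretch. A weaker peak of 0.767 was called in replicate 2 alone.

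Tmem119, a membrane protein gene used as a marker of resting microglia, had neither a peak of either list nor a footprint in its window in replicate 1. Replicate 2 had 1 peak, chr5:113783660-113783794, with a signal of 1.35, 16.7 kb past the TSS and outside the gene. No position with an FDR of 0.05 or less lay in the 26.8 kb window in replicate 1, and 131 bp did in replicate 2, where the lowest FDR was 0.000328.

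C1qa encodes a chain of complement C1q, which microglia produce in the brain. Its 1 shared peak, chr4:136894088-136894203, had signals of 0.919 and 1.31 and lies outside the gene, 1.09 kb from the TSS of C1qc. The C1q genes stand side by side, so this peak is in the windows of more than 1 of them. Its footprints in the replicates did not overlap. Aif1 encodes IBA1, the actin-binding protein stained to show microglia. Its promoter peak in replicate 2 (signal 1.34) was at TSSs inside the gene, 2.95 kb past the reference TSS, and the longer list of replicate 1 held one there with a signal of 0.860. A further replicate 2 peak of 1.18 lay 2.71 kb upstream, and the strongest window peak, at 5.15 and 7.91, was the promoter of Prrc2a and Gm17705.

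Spi1, which encodes the ETS factor PU.1, had 2 peaks and both were shared. The intronic peak had signals of 2.03 (replicate 1) and 4.06 (replicate 2). The peak in the last coding exon, which encodes part of the DNA-binding ETS domain, had a signal of 3.32 and 5.05. These were high among peaks farther than 1000 bp from any TSS, above 87.3% and 98.4% of them for the intron and above 97.9% and 99.3% for the exon. The exon peak lies 19.2 kb after the reference TSS and 2.89 kb from the TSS of Mybpc3, the next gene.

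Irf8, whose product partners PU.1 on composite sites, had its promoter peak at chr8:120736141-120736520 with signals of 1.35 (replicate 1) and 1.79 (replicate 2). These values exceeded 50.4% and 69.6% of the peaks of their lists. A weaker promoter peak of 0.592 was called beside it in replicate 2. The gene model Gm20388 also spans this position.

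Sall1, a zinc-finger gene that sets microglia apart from other macrophages, had a shared peak 1.46 kb after its GENCODE TSS, with signals of 1.52 and 1.86. A second peak in replicate 2 (1.78) reached within 500 bp of that TSS, and the longer list of replicate 1 held a peak of 0.919 at the same place. In replicate 2 these peaks cover alternative Sall1 start sites of the RefSeq annotation, chr8:89042862 and chr8:89043512, that are not among those of GENCODE M21, whereas the shared peak as called in replicate 1 ends before the first of them. With RefSeq start sites and the same 500 bp, chosen after seeing the data, 2 of 9 members (Irf8 and Sall1) had a promoter peak in both replicates, against 51.8% of all genes. The count in replicate 2 was then also 2, because the Aif1 peak lies near GENCODE start sites that RefSeq does not have.

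**Figure D3:**
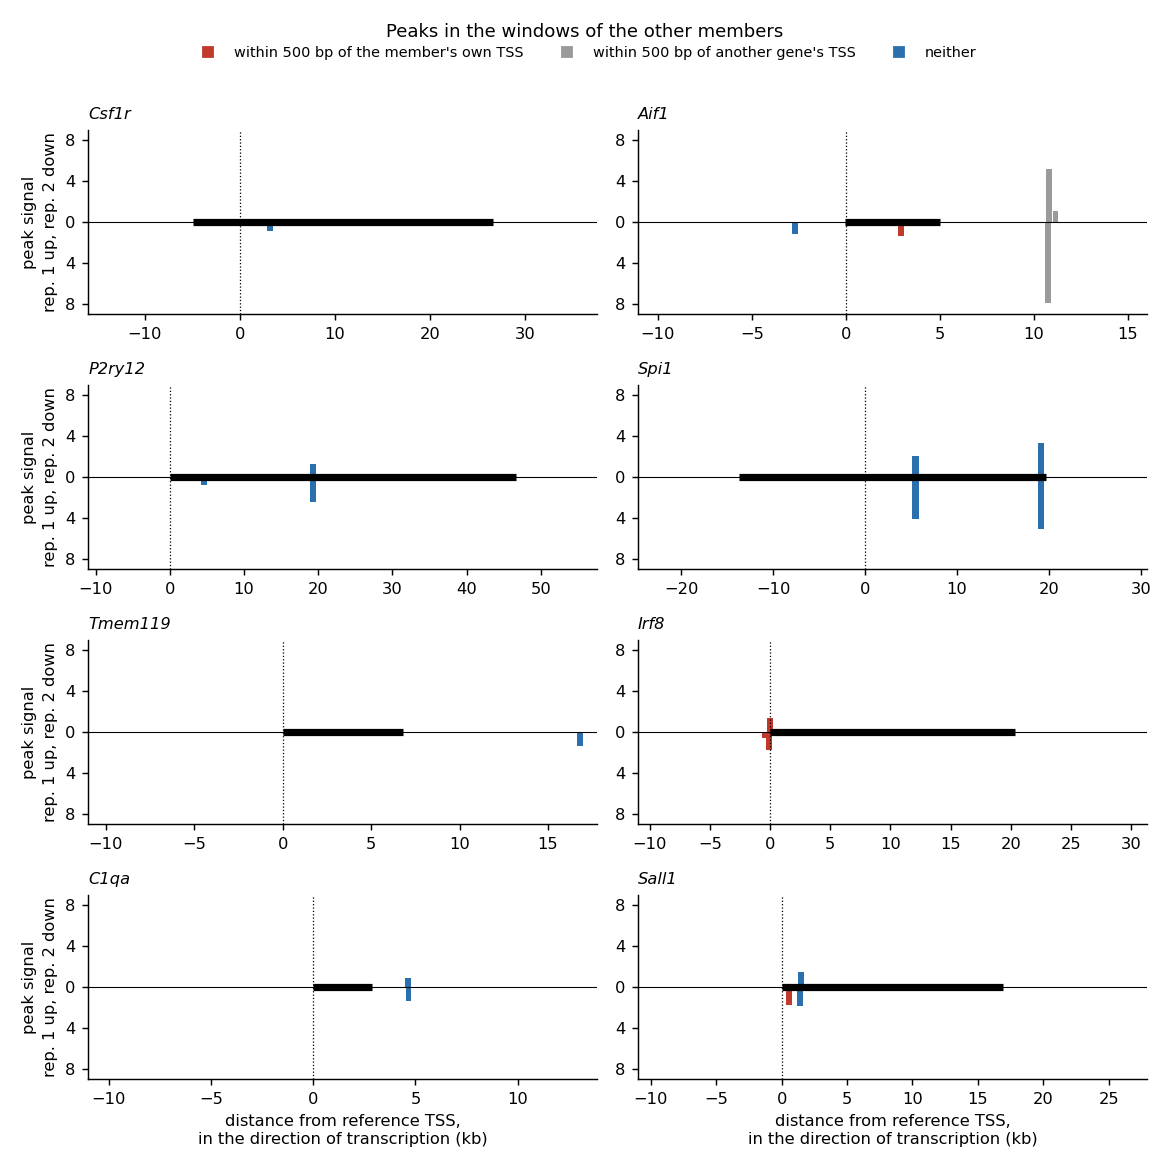
Peak signal in the windows of the other 8 members by distance from a reference TSS in the direction of transcription (kb), replicate 1 upward and replicate 2 downward, with the annotated gene body in black. Spi1 and P2ry12 have shared peaks inside their bodies, and at Irf8 and Sall1 the peaks sit at the 5′ end.

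All 15 shared peaks had a higher signal in replicate 2. The log2 ratio of replicate 2 to replicate 1 had a median of 0.62 and ran from 0.28 to 1.37, the highest value at the Gm49427 exon inside the Cx3cr1 annotation. Over all shared peaks of the libraries the median was 0.69 and 96.5% were higher in replicate 2, the same direction as at the members. If steps are tags, counting error at the window peaks was between 3.50% and 13.1%. In replicate 2, 15 window peaks had no partner, and 8 of these fell on longer-list peaks of replicate 1. The share of all replicate 2 peaks without a partner was not computed. Every level here is therefore given for each replicate.

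Footprints followed the peaks. The windows held 50 footprints in replicate 1 and 143 in replicate 2, of which 35 and 86 lay in peaks of the shorter list. Cx3cr1 had 25 and 72 of them over the window of its long annotation, of which 3 and 3 lay in the peak beside the compact gene. Tmem119 had 0 and 3. At 25 bp or wider were 7 of the 50 (14.0%) and 13 of the 143 (9.09%), against 6.38% and 6.33% of all footprints. In each replicate these window counts include footprints at the promoters of Wdr48 and Prrc2a and in distant Cx3cr1 window peaks, so the share is not of the members alone. Footprints of 25 bp or more in both replicates and away from other genes' promoters were the long runs of capitals at Spi1 (both peaks), P2ry12 and Cx3cr1 (both stretches). Replicate 2 had 2 more that overlapped only narrower footprints of replicate 1, of 26 bp in the Gm49427 exon peak and of 27 bp in the shared Sall1 peak.

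Exact matches to short motifs were counted on both strands in the 200 bp around the centre of the member peaks not at other genes' promoters, 10 in replicate 1 and 24 in replicate 2. The PU.1 letters GAGGAAGT matched 0 and 0 of them, against 1.43% and 1.62% of all peaks farther than 1000 bp from a TSS. GGAANNGAA (ETS and IRF together) and GAAANNGAA (IRF) also matched 0 and 0, against 5.30% and 6.15%, and 4.95% and 5.91%. With 10 and 24 windows and shares this low, 0 matches says only that these letters are not there. TGANTCA (AP-1) matched 0 and 3, against 9.21% and 13.2%, with the replicate 2 matches at Csf1r, Cx3cr1 and Tmem119. In this paragraph Cx3cr1 stands for its whole window. All of its peaks counted here except the upstream one lie in the long annotation outside the compact gene, in or near other genes. Of the letters counted here, the printed Cx3cr1 upstream stretch held AGGGGGC alone. GGGCGG (SP) matched 3 (30%) and 7 (29.2%), against 1479 of 12329 such peaks and 9.05%. Over all peaks of the lists the share was 34.0% and 22.6%. Of those lists 41.5% and 60.9% lay farther than 1000 bp from a TSS, against 9 of the 10 and 18 of the 24 member peaks. Neither share is therefore a like comparison, and the part of promoter peaks in the SP counts was not tested. CCAAT (NFY) matched 2 and 4, against 21.3% and 21.2%. Irf8 and Sall1 held both of these in each replicate, and Cx3cr1 peaks did in replicate 2. ACAGGAAG (ETS) matched 0 and 2, against 2.25% and 2.55%, and CCGGAAGT (ETS) 0 and 0, against 0.503% and 0.294%. TGTGGTT (RUNX) matched 0 and 1, against 3.82% and 3.94%, and TTGCNNAA (C/EBP) 0 and 1, against 8.40% and 8.90%. AGGGGGC (CTCF) matched 1 and 5, against 12.8% and 8.13%.

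A looser CTCF pattern was written after the footprints had been read, and was loosened until it took in the wide footprints at Spi1, Cx3cr1 and Aif1, so its counts among the members describe that choice. It asks for CCA, 2 free bases, AG, 2 free bases and GG, and it overlaps the AGGGGGC letters in part. It matched 3 of the 7 wide member footprints of replicate 1 and 5 of the 13 of replicate 2, against 32.2% and 31.5% of all footprints that wide. With a C required at the end the counts were 2 and 4 (27.1% and 25.9% of all), and with the usual consensus core 1 and 3 (19.3% and 18.2%). The intronic Spi1 footprint matched the loosest form alone, and the Spi1 exon failed the consensus core. The wide footprints of P2ry12 and of the Cx3cr1 upstream peak matched no form. CTCF is a factor that binds insulators and chromatin loop ends in most cell types, and a match is not evidence of its binding.

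RefSeq's promoter table (GRCm38) has entries for 5 members, Cx3cr1, P2ry12, Irf8, Sall1 and Aif1. Over its 300 bp stretches GGGCGG was found at Irf8 and Sall1 (35.7% of all promoters) and CCAAT at Cx3cr1, Irf8, P2ry12 and Sall1 (37.4%). GAGGAAGT was found at none of the 5 (3.20% of all). GAAANNGAA was found at Aif1 alone (8.56%), and TTGCNNAA at P2ry12 alone (10.8%).

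Other genes of the microglial programme were counted in the same way. Of 11 other transcription factors, 6 were called at a promoter in replicate 1 (51.0% of all genes) and 9 in replicate 2 (60.0%). The 6 were called in both (50.8%) and include Bhlhe41, Cebpa, Mef2a, Klf2 and Smad3. Mef2a was the highest of the 6, at 4.26 and 5.86, and Smad3 had 1.90 and 3.92. Several of them are also used by neurons, glia or vessels. Of 18 other microglia genes the same 4 were called in each replicate, among them Olfml3 (3.36 and 4.25), Tgfbr1 (2.65 and 4.23) and Cd68 (1.00 and 1.61). Of 7 complement genes 0 were called in either. Whether these lists differ from the members was not tested.

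Of 5 genes for ligands that act on microglia, 3 had a promoter peak in both replicates, against 50.8% of all protein-coding genes. Cx3cl1, the neuronal fractalkine gene that CX3CR1 answers to, had a promoter peak of 2.30 in replicate 1 and 3.67 in replicate 2. Csf1, a ligand of the CSF1 receptor, had 1.05 and 1.57. Tgfb2 had 1.05 and 1.25, and Il34 and Tgfb1 had none in the shorter lists.

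Markers of the other cell types of the cortex were counted in the same way. Promoters were called in both replicates for 4 of 9 astrocyte genes (Gja1, Gfap, Sox9 and Slc1a3) and 3 of 9 neuronal genes (Tbr1, Snap25 and Syn1). The same held for 2 of 9 oligodendrocyte genes (Olig1 and Myrf) and 0 of 9 vascular genes. All of these lie below the 50.8% of all protein-coding genes. For markers of border macrophages and blood myeloid cells, which share parts of the microglial programme, it was 0 of 9 in each replicate. Counting every call of replicate 2, the numbers were 7 for astrocytes, 5 for neurons, 5 for oligodendrocytes and 2 for vessels, against 60.0% of all genes. The cell-type fractions of the tissue were not measured.

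**Figure D4:**
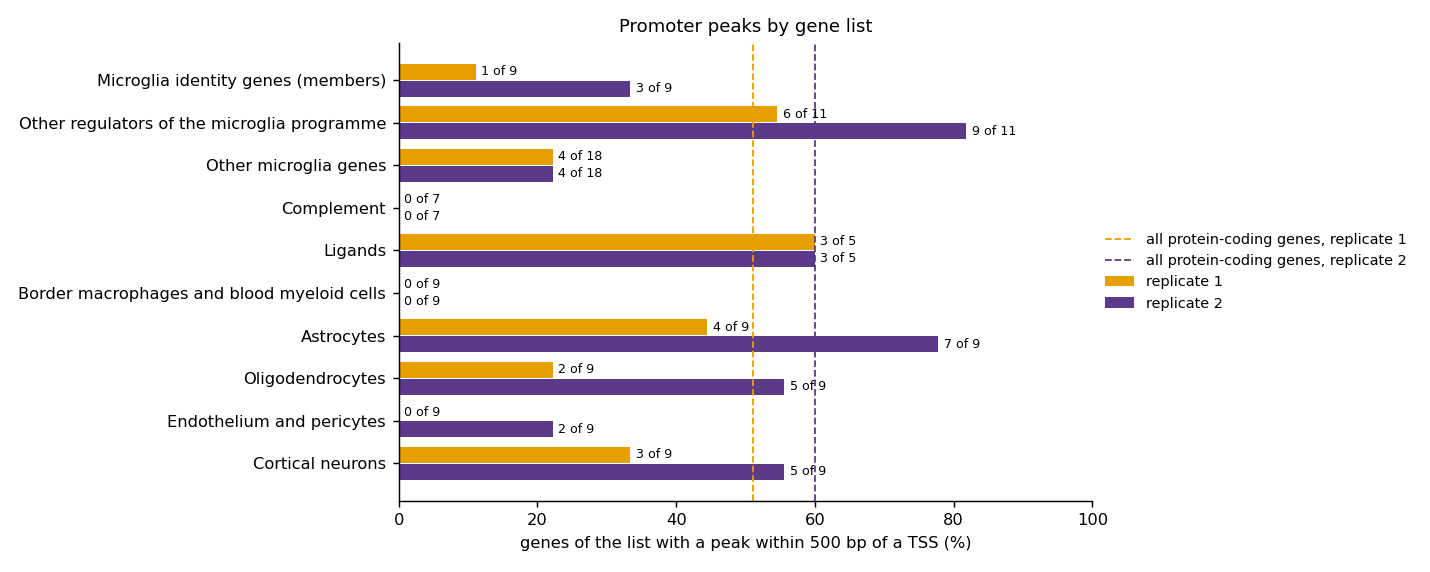
Percent of each list's genes whose TSS had a peak no farther than 500 bp away, replicate 1 in orange and replicate 2 in purple, with dashed lines for all protein-coding genes. The microglia identity genes, at 1 of 9 and 3 of 9, lie below the dashed lines at 51.0% and 60.0%, and the complement and border or blood myeloid lists have 0 in both. The neuronal, oligodendrocyte, vascular and other microglia lists also lie below both lines, and the astrocyte list lies below that of replicate 1.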

How the data were processed

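DNase-seq libraries of 2 replicates were read from the processed files. On mm10, per the labels, the authors deposited for each library 2 peak lists with a signal per peak (a density normalized for read depth), a footprint list whose score is 0.01 in every row, and a table of cut rates whose p-value column is an FDR ending at 0.05. The sources used here do not give the aligner, callers or thresholds. The list with fewer peaks was taken as the main one.

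Gene positions came from GENCODE M21, alternative TSSs and sequence from RefSeq (GRCm38). Peaks were assigned to a gene's promoter within 500 bp of any of its TSSs, and shared when they overlapped by at least 1 bp. The reference TSS is the most upstream one among principal transcripts. Peak ranks are within 1 list. Named genes were all 9 members, every gene whose TSS a window peak covers, and listed genes with a promoter peak in both replicates. Some genes that this rule takes are not reported here. The members and lists were chosen with earlier results of these data known. Overlap and motif code was tested on simulated data. Python 3.11.15, pandas 2.3.3 and numpy 2.4.6 were used.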

Additional observations from a re-analysis of the deposited data

How the results depend on the processing

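Of 70 recomputed values 38 stayed close to the reported one, 32 moved and 0 reversed. Only the log2 ratio between replicates could reverse, because counts and percentages have no sign. The longer peak list gave 2 members called at a promoter in both replicates and 2 in replicate 1, 29 and 64 window peaks, 27 of them shared, and 57.9% of all genes with a promoter peak in both. The 50% of peaks with the highest signal gave 11 window peaks in replicate 1, 8 at TSSs of other genes (main value 13, both replicates added) and 41.6% of all genes. The gene body alone gave 11 peaks in replicate 1, 6 at other genes' TSSs and 29 footprints, and 50 kb to each side gave 40 and 61 peaks, 36 shared, 43 at other genes' TSSs, and 131 and 271 footprints. Principal transcript spans shorten Cx3cr1 and P2ry12 most, to 19.6 kb and 3.9 kb, and leave out the shared P2ry12 peak. They gave 8 and 13 peaks, 7 shared, 3 at other genes' TSSs, and 27 and 69 footprints.

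Of the alternatives chosen after seeing the data, RefSeq start sites gave 2 members in both replicates and 2 in replicate 1, leaving out Cx3cr1 gave 8 and 14 peaks with 7 shared, and leaving out peaks at TSSs of other genes gave 10 peaks in replicate 1. Without either replicate, the members with a promoter peak numbered 1 to 3 and the share of all genes was 51.0% to 60.0%. No paired analysis was possible because there is 1 group. Library totals were not analysed here, replicate 2 had more peaks at every list, and 2 replicates give no test.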
